A study of Mus musculus with 8 samples.

Results

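RNA of the MHC class II system was followed through 4 genes, Cd74, H2-Aa, H2-Ab1 and H2-Eb1, taken by symbol from the gene lists of 4 single-cell expression libraries. All 4 genes were listed in every library, among 31053 genes in experiment 1 and 32285 genes in experiment 2. The libraries were made by droplet 5′ sequencing of CD8 T cells from MC38 colon carcinoma tumours in wild type C57BL/6 mice, and each had a companion library of T cell receptor (TCR) sequences. The mice of experiment 1 were injected under the skin with 10 mg/kg of rhIL-7-hyFc, a recombinant human interleukin-7 fused to a hybrid Fc to prolong its action, or with buffer, and tumours were taken 7 days later; CD8 T cells were enriched with magnetic beads. Those of experiment 2 had 1.25 mg/kg of rhIL-7-hyFc with a T cell engager (TCE), which binds mouse PD-L1 and CD3ε and was given into a vein from day 3 on, or 1.25 mg/kg of rhIL-7-hyFc alone; tumours were taken 24 hours after the last treatment and viable CD45+ TCRβ+ CD8α+ cells were sorted. The labels' wording leaves unclear whether the TCE was given once or 3 times a day. Each group was 1 library, and how many mice it pools is not stated in the sources used. No test between groups was therefore possible. The intervals given are at 95% and hold counting error alone.

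MHC class II molecules present peptides to CD4 T cells and are made above all by dendritic cells, macrophages and B cells. H2-Aa and H2-Ab1 encode the alpha and beta chains of I-A, the class II molecule that C57BL/6 mice carry at the cell surface. H2-Eb1 encodes the beta chain of I-E, whose alpha chain is not made in this strain. Cd74 encodes the invariant chain, which fills the peptide groove until the molecule reaches the endosome. Transcription is driven by CIITA, which joins the factors RFX and NF-Y on the X and Y boxes of class II promoters. Human T cells make class II molecules when activated, whereas mouse T cells are known for not doing so, and tumour macrophages and dendritic cells are rich sources of the same RNA. The comparison here was between CD8 T barcodes with and without RNA of myeloid cells and myeloid barcodes without T cell RNA.

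In the GENCODE annotation of GRCm38, 3 of the 4 genes lie in the MHC on chromosome 17, and Cd74 lies outside it. H2-Ab1 spans chr17:34257689-34269419 on the plus strand, H2-Aa chr17:34282744-34287823 on the minus strand and H2-Eb1 chr17:34305867-34316674 on the plus strand. The 120 bases before the start of 3 class II genes are printed below from RefSeq (GRCm38.p6), each in the direction of transcription, to show the boxes that these genes share. Capitals mark the core of the X box, GCAAC, and the Y box, CTGATTGG. H2-Aa and H2-Eb1 are members of the set, and H2-Oa, chosen after its values were seen, is shown because it holds the same boxes and stood apart from the members in T cells.
H2-Aa: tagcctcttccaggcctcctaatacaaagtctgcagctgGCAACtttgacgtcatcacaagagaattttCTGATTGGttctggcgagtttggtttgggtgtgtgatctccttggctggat
H2-Eb1: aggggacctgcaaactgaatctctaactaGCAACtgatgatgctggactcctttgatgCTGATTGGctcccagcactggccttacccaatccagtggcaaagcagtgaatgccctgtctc
H2-Oa: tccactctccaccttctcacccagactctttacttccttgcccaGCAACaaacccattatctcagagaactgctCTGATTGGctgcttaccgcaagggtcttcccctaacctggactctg
These windows are chr17:34287824-34287943 (minus strand) for H2-Aa, chr17:34305747-34305866 (plus strand) for H2-Eb1 and chr17:34092259-34092378 (plus strand) for H2-Oa. In H2-Aa the X core begins 81 bases and the Y box 51 bases before the start, with 25 bases between them. In H2-Eb1 they begin 91 and 62 bases before it, with 24 bases between, and in H2-Oa 76 and 46 bases before it, with 25 between. Both strands of 32851 mouse promoters were searched, and the motifs do not overlap each other in the 3 windows shown. The Y box was found in 4.10% of promoters, the X core in 35.2%, and the X core 10 to 40 bases ahead of the Y box on 1 strand in 0.134%. A promoter was at hand for 16 genes of the members and of a wider list of the class II pathway. That list also holds proteases, transcription factors and costimulatory genes. The pair was found in 4 of the 16: H2-Aa, H2-Eb1, H2-Oa and H2-Eb2. A match describes the letters only.

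A barcode stands for 1 droplet, and a unique molecular identifier (UMI) for 1 captured RNA molecule. The libraries held 5589 to 12560 barcodes and 47308214 to 118191371 UMIs, and 45 to 195 barcode sequences were shared between any pair of them. CD8 T barcodes had at least 500 genes, under 10% mitochondrial UMIs, at least 1 UMI of Cd3d, Cd3e or Cd3g, at least 1 of Cd8a or Cd8b1, and none of Cd4. They numbered 5599 with rhIL-7-hyFc 10 mg/kg, 3915 with buffer, 10844 with rhIL-7-hyFc 1.25 mg/kg plus TCE (called the combination) and 10745 with rhIL-7-hyFc 1.25 mg/kg alone. They were divided by their summed UMIs of Lyz2 (lysozyme) and C1qa, C1qb and C1qc (complement C1q), 4 genes of macrophages and monocytes called the myeloid genes here. Myeloid barcodes had at least 5 such UMIs and no Cd3 UMI, and numbered 128 with rhIL-7-hyFc 10 mg/kg, 123 with buffer, 73 with the combination and 666 with rhIL-7-hyFc 1.25 mg/kg. A single Cd3 or a single Cd8 UMI was all that 2.21% of CD8 T barcodes rested on with rhIL-7-hyFc 10 mg/kg, 13.8% with buffer, 2.28% with the combination and 2.53% with rhIL-7-hyFc 1.25 mg/kg, so the buffer library stood apart. A TCR beta chain was assembled in 94.4% of them with rhIL-7-hyFc 10 mg/kg, 72.5% with buffer, 73.4% with the combination and 63.6% with rhIL-7-hyFc 1.25 mg/kg.

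Most CD8 T barcodes carried no myeloid UMI in the libraries treated with rhIL-7-hyFc 10 mg/kg (4977 barcodes, 88.9%) and with the combination (9938 barcodes, 91.6%). The share was lower with buffer (1998 barcodes, 51.0%) and with rhIL-7-hyFc 1.25 mg/kg (6305 barcodes, 58.7%). Between 1 and 4 myeloid UMIs were found in 9.75% of CD8 T barcodes with rhIL-7-hyFc 10 mg/kg, 43.9% with buffer, 2.04% with the combination and 12.5% with rhIL-7-hyFc 1.25 mg/kg. At least 5 were found in 76 barcodes (1.36%) with rhIL-7-hyFc 10 mg/kg, 197 (5.03%) with buffer, 685 (6.32%) with the combination and 3093 (28.8%) with rhIL-7-hyFc 1.25 mg/kg. The buffer library thus had many barcodes with a few myeloid UMIs, and the rhIL-7-hyFc 1.25 mg/kg library many with a large number.

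Class II RNA was high in T barcodes with myeloid RNA and in myeloid barcodes, and lowest in T barcodes without myeloid RNA. Levels are given as CPM, the UMIs of a gene per 1000000 UMIs of the class; since a UMI marks 1 molecule at its 5′ end, they were not scaled by gene length. Summed over the 4 genes, CD8 T barcodes with at least 5 myeloid UMIs held 12476 CPM with rhIL-7-hyFc 10 mg/kg, 9992 CPM with buffer, 4696 CPM with the combination and 6207 CPM with rhIL-7-hyFc 1.25 mg/kg. Myeloid barcodes held 21645 CPM with rhIL-7-hyFc 10 mg/kg, 9498 CPM with buffer, 12122 CPM with the combination and 12842 CPM with rhIL-7-hyFc 1.25 mg/kg. With buffer the myeloid level was 0.951 times (0.929 to 0.973) that of these T barcodes, and in the other libraries it was 1.73 to 2.58 times as high. The T barcodes of this class had a median of 26 Cd3 UMIs with rhIL-7-hyFc 10 mg/kg, against 2 with buffer, and 53 with the combination, against 44 with rhIL-7-hyFc 1.25 mg/kg.

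In CD8 T barcodes without a myeloid UMI the sum was 39.6 CPM (37.9 to 41.4) with rhIL-7-hyFc 10 mg/kg, against 926 CPM (913 to 940) with buffer. It was 196 CPM (193 to 199) with the combination and 736 CPM (728 to 744) with rhIL-7-hyFc 1.25 mg/kg. The 4 libraries thus spread over a wider range here than in myeloid barcodes, where the highest and the lowest were 21645 and 9498 CPM. Barcodes with 1 to 4 myeloid UMIs lay between the other T cell classes, at 988 CPM with rhIL-7-hyFc 10 mg/kg, 1265 CPM with buffer, 4156 CPM with the combination and 2094 CPM with rhIL-7-hyFc 1.25 mg/kg.

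**Figure D1:**
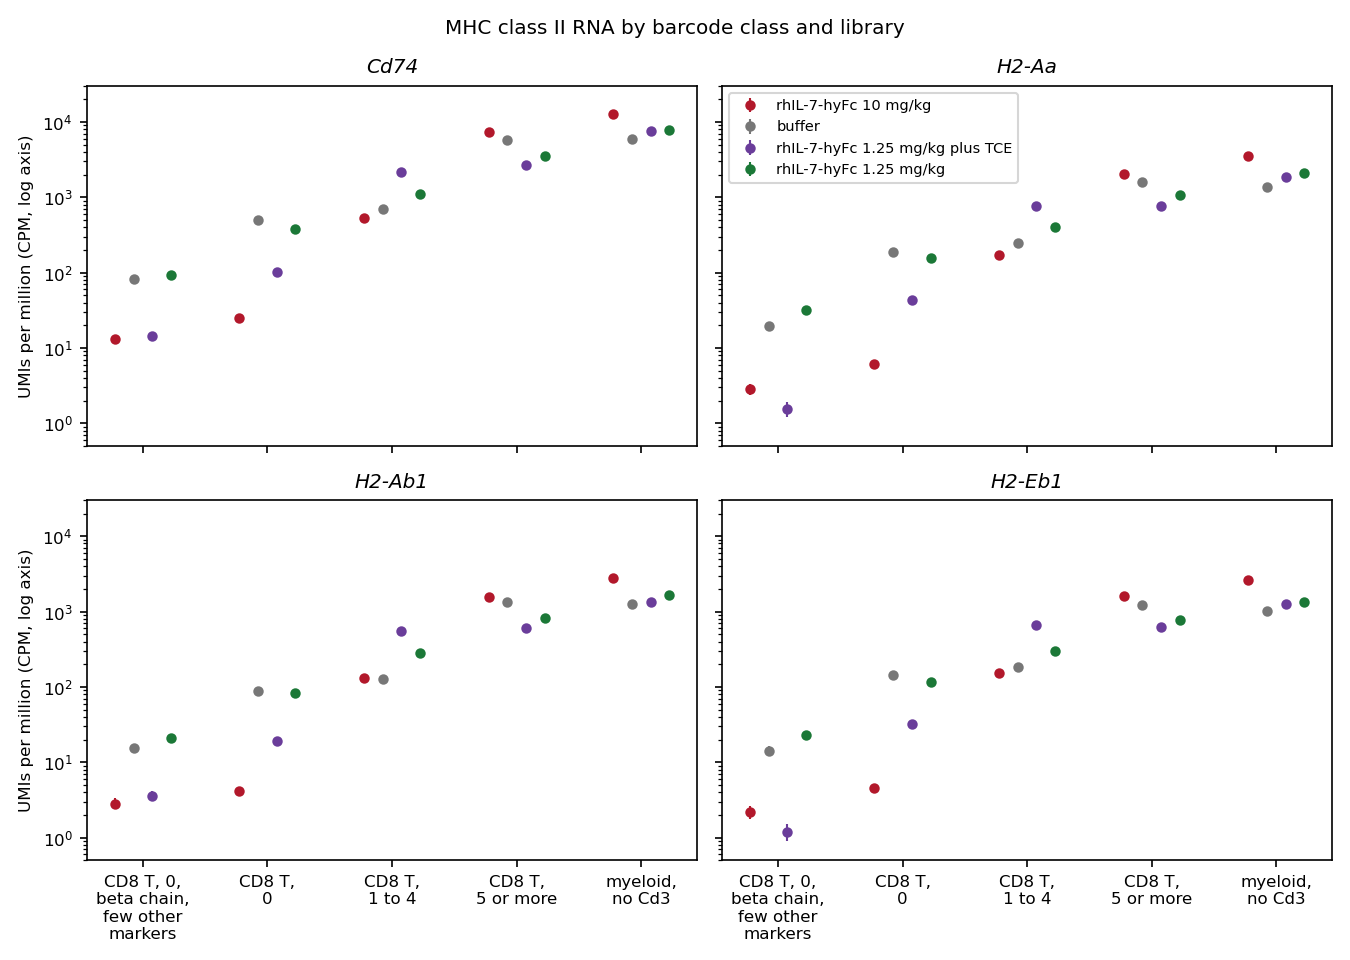
Each panel plots 1 gene in CPM (log axis) for 5 barcode classes on the x axis, with 1 point per library and bars for the 95% counting interval, which is often smaller than the point. In all 4 genes every library is lower in T barcodes without myeloid UMIs than in myeloid barcodes, and in strict CD8 T barcodes the buffer and rhIL-7-hyFc 1.25 mg/kg libraries lie above the other two.

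Cd74, the invariant chain gene at chr18:60803848-60812652 on the plus strand, was at 24.9 CPM in CD8 T barcodes without a myeloid UMI with rhIL-7-hyFc 10 mg/kg, against 506 CPM with buffer, and at 101 CPM with the combination, against 381 CPM with rhIL-7-hyFc 1.25 mg/kg. In myeloid barcodes it was at 12750 CPM with rhIL-7-hyFc 10 mg/kg, 5858 CPM with buffer, 7644 CPM with the combination and 7747 CPM with rhIL-7-hyFc 1.25 mg/kg. The order of the libraries in T barcodes was therefore not that in myeloid barcodes, where rhIL-7-hyFc 10 mg/kg stood highest.

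H2-Aa, the I-A alpha chain, was at 6.05 CPM in the same T barcodes with rhIL-7-hyFc 10 mg/kg, against 189.8 CPM with buffer, and at 43.1 CPM with the combination, against 155 CPM with rhIL-7-hyFc 1.25 mg/kg. H2-Ab1, the I-A beta chain, was at 4.13 CPM with rhIL-7-hyFc 10 mg/kg, against 87.4 CPM with buffer, and at 19.1 CPM with the combination, against 82.1 CPM with rhIL-7-hyFc 1.25 mg/kg. H2-Eb1, the I-E beta chain, was at 4.53 CPM with rhIL-7-hyFc 10 mg/kg, against 143 CPM with buffer, and at 32.2 CPM with the combination, against 117 CPM with rhIL-7-hyFc 1.25 mg/kg. All 4 genes kept one order of libraries in these barcodes, with buffer highest, then rhIL-7-hyFc 1.25 mg/kg, the combination and rhIL-7-hyFc 10 mg/kg. The counting intervals of neighbouring libraries in that order did not meet for Cd74, H2-Aa and H2-Eb1; for H2-Ab1 those of buffer (83.4 to 91.6) and rhIL-7-hyFc 1.25 mg/kg (79.4 to 85.0) overlapped.

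Among myeloid barcodes the order of H2-Aa was rhIL-7-hyFc 10 mg/kg (3482 CPM), rhIL-7-hyFc 1.25 mg/kg (2100.3 CPM), the combination (1858 CPM) and buffer (1389 CPM). H2-Ab1 followed it with 2823 CPM with rhIL-7-hyFc 10 mg/kg, 1249 CPM with buffer, 1356 CPM with the combination and 1636 CPM with rhIL-7-hyFc 1.25 mg/kg. H2-Eb1 stood at 2590.1 CPM with rhIL-7-hyFc 10 mg/kg, 1002 CPM with buffer, 1264 CPM with the combination and 1359 CPM with rhIL-7-hyFc 1.25 mg/kg. In each gene the buffer library was the lowest among myeloid barcodes and the highest among T barcodes without myeloid UMIs.

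In T barcodes without a myeloid UMI, a small number of barcodes held 48.8% to 92.5% of the class II RNA. Barcodes with at least 20 class II UMIs numbered 60 of 9938 with the combination and held 13081 of the 14597 class II UMIs (89.6%). In the rhIL-7-hyFc 1.25 mg/kg library they numbered 116 of 6305 and held 27736 of 30000 (92.5%). With rhIL-7-hyFc 10 mg/kg they were 5 of 4977 and held 1026 of 2101 (48.8%), against 45 of 1998 with buffer, which held 15742 of 18619 (84.5%). The CPM of this class thus rests largely on few barcodes, which its counting interval does not show.

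Many of these barcodes carried markers of dendritic cells, of different kinds in the 4 libraries. At least 3 of 8 markers of mature dendritic cells (Fscn1, Ccl22, Cacnb3, Il4i1, Nudt17, Apol7c, Ccl17 and Il12b) were detected in 20% of them with rhIL-7-hyFc 10 mg/kg, 62.2% with buffer, 71.7% with the combination and 46.6% with rhIL-7-hyFc 1.25 mg/kg. For plasmacytoid dendritic cells the share was 60% with rhIL-7-hyFc 10 mg/kg, 15.6% with buffer, 0% with the combination and 10.3% with rhIL-7-hyFc 1.25 mg/kg, and for conventional type 1 dendritic cells it was 20% with rhIL-7-hyFc 10 mg/kg, 28.9% with buffer, 20% with the combination and 18.1% with rhIL-7-hyFc 1.25 mg/kg. The shares with rhIL-7-hyFc 10 mg/kg rest on 5 barcodes and set no order. At least 3 markers of any cell type other than T cells were detected in 60% with rhIL-7-hyFc 10 mg/kg, 82.2% with buffer, 80% with the combination and 74.1% with rhIL-7-hyFc 1.25 mg/kg. Among barcodes of the same stratum without a class II UMI, that share was 0% with rhIL-7-hyFc 10 mg/kg, 0.493% with buffer, 0.0439% with the combination and 0.10% with rhIL-7-hyFc 1.25 mg/kg. The barcodes with at least 20 class II UMIs also had T cell RNA, with a median of 32 Cd3 UMIs with rhIL-7-hyFc 10 mg/kg, 2 with buffer, 39.5 with the combination and 34.5 with rhIL-7-hyFc 1.25 mg/kg. Their median total was 18384 UMIs with rhIL-7-hyFc 10 mg/kg, 10246 with buffer, 13901 with the combination and 12832 with rhIL-7-hyFc 1.25 mg/kg. Whether they are droplets with 2 cells was not tested.

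A second kind of barcode held 1 to 4 class II UMIs and made up most of the positive ones. With rhIL-7-hyFc 10 mg/kg these were 15.7% of T barcodes without a myeloid UMI, against 63.4% with buffer. With the combination they were 7.14%, against 17.8% with rhIL-7-hyFc 1.25 mg/kg. They held 45.8% of the class II UMIs with rhIL-7-hyFc 10 mg/kg, 12.2% with buffer, 6.85% with the combination and 5.06% with rhIL-7-hyFc 1.25 mg/kg. At least 3 markers of another cell type were found in 0% of them with rhIL-7-hyFc 10 mg/kg, 0.710% with buffer, 0.563% with the combination and 1.25% with rhIL-7-hyFc 1.25 mg/kg. Their median Cd3 count was 38 with rhIL-7-hyFc 10 mg/kg, 34 with buffer, 37 with the combination and 25 with rhIL-7-hyFc 1.25 mg/kg. In T barcodes of the stratum without class II RNA it was 33, 33, 27 and 22 in the same order. These counts were not thinned to a common depth, on which finding a class II UMI also depends.

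**Figure D2:**
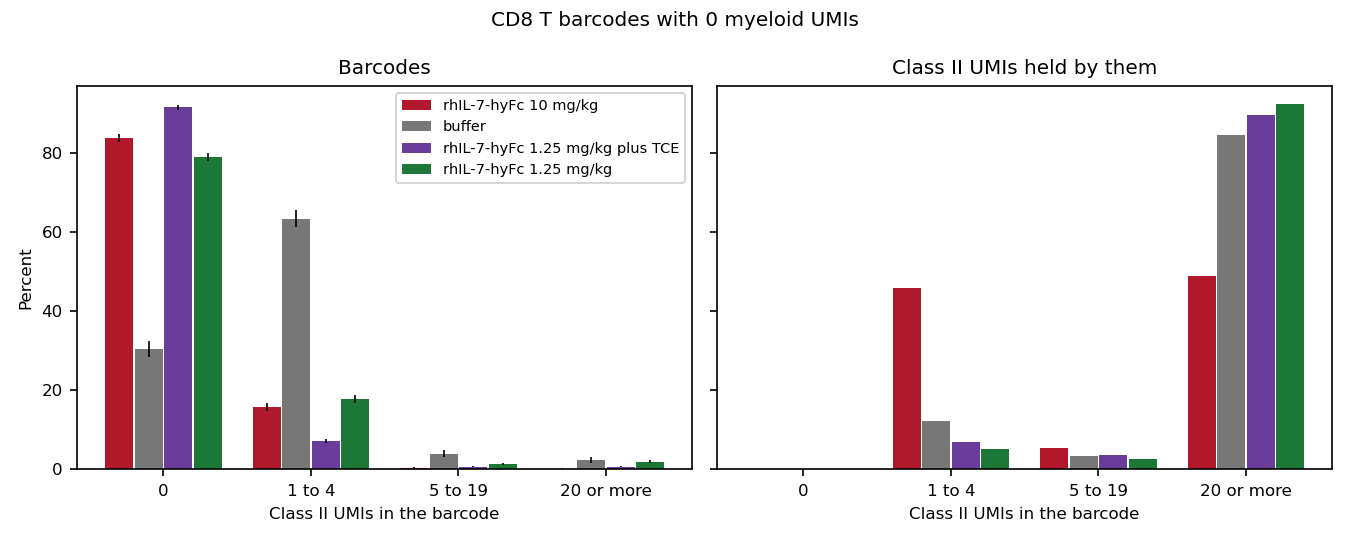
For T barcodes without a myeloid UMI, the left panel gives the percent of barcodes and the right panel the percent of class II UMIs they hold, by class II UMIs per barcode (x axis), with 1 bar per library and 95% intervals at the left. The bin of 20 or more is under 3% of barcodes in each library and holds 48.8% to 92.5% of the UMIs.

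The share of positive barcodes depends on depth, so each barcode was also thinned to 3000 UMIs, leaving out shallower ones. Without thinning, a class II UMI was found in 16.1% of T barcodes without a myeloid UMI with rhIL-7-hyFc 10 mg/kg, 69.5% with buffer, 8.33% with the combination and 20.9% with rhIL-7-hyFc 1.25 mg/kg. After thinning the share was 5.37% (4.75 to 6.04; 151 barcodes left out) with rhIL-7-hyFc 10 mg/kg and 35.0% (32.7 to 37.3; 345 left out) with buffer. It was 4.52% (4.11 to 4.95; 398 left out) with the combination and 13.2% (12.4 to 14.1; 482 left out) with rhIL-7-hyFc 1.25 mg/kg. The order of the libraries was kept, and the intervals of the combination and rhIL-7-hyFc 10 mg/kg came to overlap.

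Class II RNA in T barcodes went with myeloid RNA in each library. Barcodes with at least 5 myeloid UMIs stood above those with 0 by 315-fold (301 to 330) with rhIL-7-hyFc 10 mg/kg, against 10.8-fold (10.6 to 11) with buffer. The fold was 24.0 (23.6 to 24.4) with the combination and 8.43 (8.34 to 8.53) with rhIL-7-hyFc 1.25 mg/kg. All 4 members were at least 1.5-fold higher in all 4 libraries. Of all genes with at least 5 CPM in either class, 24.8% were past that fold with rhIL-7-hyFc 10 mg/kg, 23.0% with buffer, 10.2% with the combination and 13.5% with rhIL-7-hyFc 1.25 mg/kg. Among barcodes with an assembled beta chain the fold was 494 with rhIL-7-hyFc 10 mg/kg, 23.9 with buffer, 64.0 with the combination and 16.7 with rhIL-7-hyFc 1.25 mg/kg.

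The amount of class II RNA per myeloid UMI was in T barcodes of the top stratum close to or above that of myeloid barcodes. T barcodes with at least 5 myeloid UMIs held 1.77 class II UMIs per myeloid UMI (1.73 to 1.82) with rhIL-7-hyFc 10 mg/kg, against 1.84 (1.81 to 1.87) in myeloid barcodes of that library. With buffer these values were 1.04 in T barcodes and 0.703 in myeloid barcodes. They were 1.21 and 0.880 with the combination, and 1.47 and 1.06 with rhIL-7-hyFc 1.25 mg/kg. In barcodes with 1 to 4 myeloid UMIs the ratio was higher, at 9.39 with rhIL-7-hyFc 10 mg/kg, 9.22 with buffer, 25.8 with the combination and 11.4 with rhIL-7-hyFc 1.25 mg/kg; a low count of myeloid genes is what defines that class, so its ratio is in part set by the rule. In the whole of the CD8 T barcodes, the class II sum was 1.97% of the myeloid level with rhIL-7-hyFc 10 mg/kg, 17.0% with buffer, 7.88% with the combination and 28.7% with rhIL-7-hyFc 1.25 mg/kg. Lyz2 was at 1.63% of its myeloid level with rhIL-7-hyFc 10 mg/kg, 4.13% with buffer, 2.89% with the combination and 11.1% with rhIL-7-hyFc 1.25 mg/kg. C1qa was at 1.34% with rhIL-7-hyFc 10 mg/kg, 5.09% with buffer, 27.3% with the combination and 46.5% with rhIL-7-hyFc 1.25 mg/kg. The class II share thus stood above that of both myeloid genes in experiment 1 and between them in experiment 2.

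Among barcodes without Cd3 UMIs, class II RNA differed between the cell types that their markers named. Barcodes with at least 3 markers of conventional type 1 dendritic cells, which take up antigen and present it to CD8 T cells, were at 48236 CPM (8 barcodes) with rhIL-7-hyFc 10 mg/kg and 67363 CPM (5 barcodes) with buffer. They were at 49039 CPM (7 barcodes) with the combination and 50471 CPM (14 barcodes) with rhIL-7-hyFc 1.25 mg/kg. Barcodes with mature dendritic cell markers were at 7945 CPM (3 barcodes) with rhIL-7-hyFc 10 mg/kg, 20583 CPM (37 barcodes) with buffer, 19296 CPM (11 barcodes) with the combination and 19878 CPM (44 barcodes) with rhIL-7-hyFc 1.25 mg/kg. Barcodes with macrophage and monocyte markers were at 20446 CPM (128 barcodes) with rhIL-7-hyFc 10 mg/kg, 9319 CPM (139 barcodes) with buffer, 13119.5 CPM (50 barcodes) with the combination and 13615 CPM (600 barcodes) with rhIL-7-hyFc 1.25 mg/kg. Plasmacytoid dendritic cell markers went with 5472 to 19105 CPM. A single barcode had B cell markers, with rhIL-7-hyFc 1.25 mg/kg, and held 397 class II UMIs. In every library the barcodes with conventional type 1 dendritic cell markers thus held more class II RNA per UMI than those with macrophage markers.

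T barcodes were next narrowed, after the data had been seen, to those with an assembled beta chain, no myeloid UMI and fewer than 3 detected markers of every other cell type, called strict CD8 T barcodes. These were 4731 barcodes with rhIL-7-hyFc 10 mg/kg, 1504 with buffer, 7601 with the combination and 4712 with rhIL-7-hyFc 1.25 mg/kg. Their class II sum was 21 CPM (19.8 to 22.3) with rhIL-7-hyFc 10 mg/kg, against 132 CPM (127 to 138) with buffer. It was 20.7 CPM (19.5 to 21.9) with the combination and 168 CPM (164 to 173) with rhIL-7-hyFc 1.25 mg/kg. Class II RNA was thus still counted in them, and the intervals of rhIL-7-hyFc 10 mg/kg and the combination overlapped.

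In 3 libraries all 4 genes stood in strict CD8 T barcodes at about the same small percent of the myeloid level, and in the combination library they did not. With rhIL-7-hyFc 10 mg/kg they lay between 0.0821% (H2-Aa) and 0.103% (Cd74), and with buffer between 1.22% (H2-Ab1) and 1.42% (Cd74). With rhIL-7-hyFc 1.25 mg/kg they lay between 1.19% (Cd74) and 1.69% (H2-Eb1). With the combination they spread further, at 0.188% for Cd74 and 0.266% for H2-Ab1, against 0.0828% for H2-Aa and 0.0924% for H2-Eb1. H2-Aa rested there on 83 UMIs and H2-Eb1 on 63.

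The macrophage genes Csf1r and Fcgr1, which did not set the stratum, were at lower percents of their myeloid level than the members in 3 libraries, while with rhIL-7-hyFc 10 mg/kg Csf1r lay among them. Csf1r, the receptor for the growth factor CSF-1, was at 0.0845% with rhIL-7-hyFc 10 mg/kg, 0.479% with buffer, 0.0373% with the combination and 0.393% with rhIL-7-hyFc 1.25 mg/kg. Fcgr1, an Fc receptor gene, was at 0.0491% with rhIL-7-hyFc 10 mg/kg, 0.471% with buffer, 0.0626% with the combination and 0.395% with rhIL-7-hyFc 1.25 mg/kg. Both are among the 8 macrophage markers, of which a strict CD8 T barcode could hold no more than 2, so the rule itself bears on their level. H2-DMb1, the beta chain of the peptide loader H2-DM, lay below each member in 3 libraries and among the members with the combination. With rhIL-7-hyFc 10 mg/kg H2-DMb1 was close to Fcgr1. It was at 0.0504% with rhIL-7-hyFc 10 mg/kg, against 1.08% with buffer, 0.152% with the combination and 1.14% with rhIL-7-hyFc 1.25 mg/kg. The buffer and rhIL-7-hyFc 1.25 mg/kg libraries were above the other two for each of these genes, as they were for the members.

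Other genes of antigen presentation stood far higher in strict CD8 T barcodes. H2-DMa, the alpha chain of H2-DM, was at 6.4% of the myeloid level with rhIL-7-hyFc 10 mg/kg, 6.70% with buffer, 5.72% with the combination and 6.66% with rhIL-7-hyFc 1.25 mg/kg. Ctss, the cathepsin that trims the invariant chain, was at 5.56% with rhIL-7-hyFc 10 mg/kg, 3.86% with buffer, 5.60% with the combination and 3.99% with rhIL-7-hyFc 1.25 mg/kg. H2-Oa, the alpha chain of H2-O, which restrains H2-DM, was above its myeloid level in every library, at 602% (305 to 1397) with rhIL-7-hyFc 10 mg/kg, against 665% (182 to 5525) with buffer. It was at 417% (115 to 3449) with the combination and 223% (151 to 342) with rhIL-7-hyFc 1.25 mg/kg. These values rest on only 2 to 27 UMIs in the myeloid barcodes of a library. The percents of H2-DMa and Ctss thus lay close together over the libraries, while each member's lowest and highest differed more than 10-fold. Ciita, the transactivator of the system, was counted in strict CD8 T barcodes with 18 UMIs with rhIL-7-hyFc 10 mg/kg, 19 with buffer, 37 with the combination and 25 with rhIL-7-hyFc 1.25 mg/kg. That is 0.360 CPM with rhIL-7-hyFc 10 mg/kg, against 1.14 CPM with buffer, 0.685 CPM with the combination and 0.864 CPM with rhIL-7-hyFc 1.25 mg/kg.

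**Figure D3:**
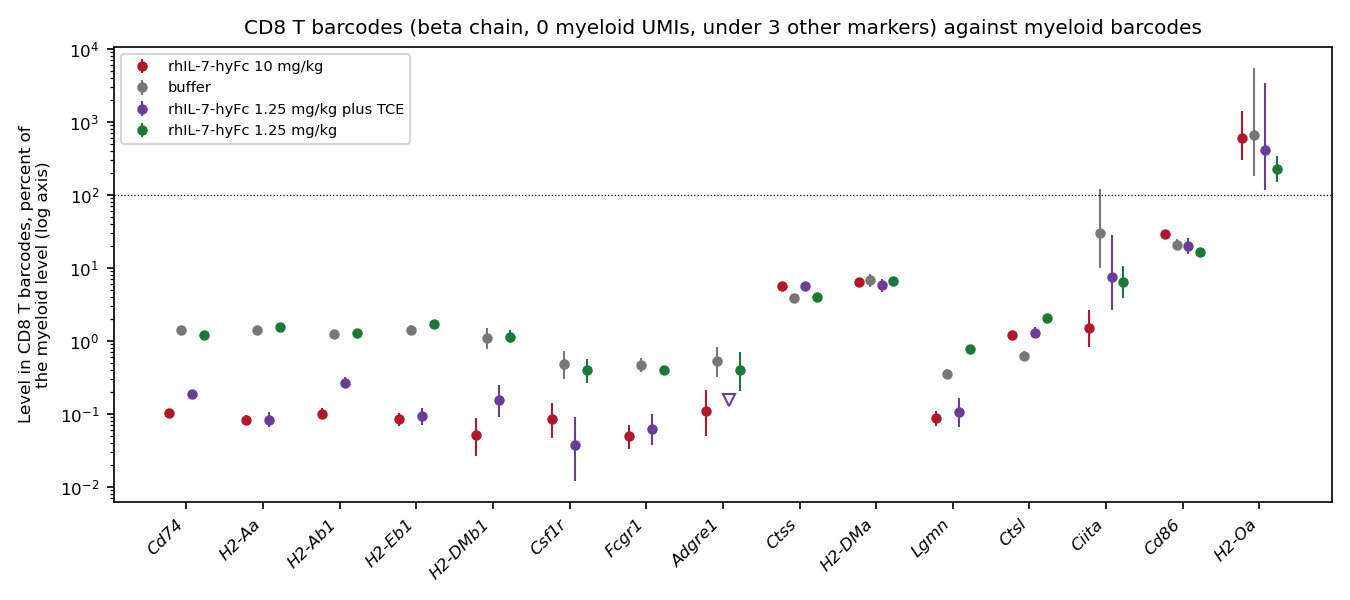
For 15 genes on the x axis, the level in strict CD8 T barcodes is drawn as a percent of that in myeloid barcodes (log axis), with 1 point per library and 95% counting intervals; the dotted line is 100%, and the open triangle marks Adgre1, which had 0 UMIs with the combination, at the upper end of its interval. The 4 members lie between 0.0821% and 1.69%, H2-DMa between 5.72% and 6.70% and H2-Oa above 100%.

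Measured the other way, T cell genes were also counted in myeloid barcodes. Cd8a, Cd8b1, Cd2, Lck, Trac and Trbc2 stood there at 0.439% to 1.17% of their level in strict CD8 T barcodes with rhIL-7-hyFc 10 mg/kg and at 2.32% to 5.05% with buffer. With the combination they stood at 0% to 1.14%, with 0 UMIs of Cd8a, Cd2 and Trac, and with rhIL-7-hyFc 1.25 mg/kg at 0.520% to 2.59%. In both directions the rhIL-7-hyFc 10 mg/kg library was thus lower than the buffer library. Myeloid barcodes hold no Cd3 UMI by definition, so the rule itself bears on the level of T cell genes in them. Barcodes with fibroblast markers and no Cd3 UMI were set beside strict CD8 T barcodes, and were few. At least 3 mature dendritic cell markers were also detected in 28.6% of them with buffer and 12.5% with rhIL-7-hyFc 1.25 mg/kg. Whether they lack class II RNA of their own was not tested. With buffer, strict CD8 T barcodes held 1.47 class II UMIs each and 132 CPM at a median depth of 9501 UMIs, against 2.43 class II UMIs each (1.41 to 3.89) and 32.5 CPM at 84441 UMIs in 7 barcodes with fibroblast markers and no Cd3 UMI. In the rhIL-7-hyFc 1.25 mg/kg library, strict CD8 T barcodes held 1.03 each and 168 CPM at 5297 UMIs, against 1.88 each (1.05 to 3.09) and 43.0 CPM at 45018 UMIs in 8 fibroblast-marker barcodes.

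Thinned to 3000 UMIs, a class II UMI was found in strict CD8 T barcodes in 4.91% (4.31 to 5.58) with rhIL-7-hyFc 10 mg/kg, 32.4% (30.0 to 34.9) with buffer, 3.89% (3.47 to 4.36) with the combination and 11.7% (10.8 to 12.7) with rhIL-7-hyFc 1.25 mg/kg. In fibroblast-marker barcodes it was found in 14.3% (interval 0.361 to 57.9) in the buffer library and 12.5% (interval 0.316 to 52.7) in the rhIL-7-hyFc 1.25 mg/kg library. The share with rhIL-7-hyFc 1.25 mg/kg lay below that of its fibroblast-marker barcodes, while its level of 168 CPM lay above their 43.0 CPM. With buffer the share lay above that of the fibroblast-marker barcodes, inside their wide interval, and the level of 132 CPM above their 32.5 CPM. With so few fibroblast-marker barcodes the shares set no order. Barcodes with neutrophil markers gave 0 class II UMIs in 2 barcodes with buffer. With the combination they gave 18 UMIs in 17 barcodes, of which 66.7% were in 1 barcode. That is 1.06 UMIs each (0.628 to 1.67), against 0.147 each in strict CD8 T barcodes of that library. In the rhIL-7-hyFc 1.25 mg/kg library they gave 379 UMIs in 44 barcodes, of which 86.0% were in 1 barcode. How far free RNA accounts for the class II UMIs of strict CD8 T barcodes was not tested.

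The spread over barcodes also differed. In strict CD8 T barcodes thinned to 3000 UMIs, the variance of the class II count divided by its mean was 1.44 with rhIL-7-hyFc 10 mg/kg and 1.35 with buffer, above the value of 1 that random counting gives. It was 9.10 with the combination and 59.9 with rhIL-7-hyFc 1.25 mg/kg. The highest strict barcode held 47 class II UMIs with rhIL-7-hyFc 10 mg/kg, 40 with buffer, 143 with the combination and 753 with rhIL-7-hyFc 1.25 mg/kg. That last barcode alone held 15.5% of its class, so in experiment 2 a few strict CD8 T barcodes weighed heavily in the sum.

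The mix of the 4 genes was compared as each gene's share of their summed UMIs. T barcodes with at least 5 myeloid UMIs had Cd74 at 56.9% to 58.5%, H2-Aa at 16.1% to 17.4% and H2-Ab1 at 12.7% to 13.3% over the libraries. H2-Eb1 was at 12.1% to 13.1% in them. In each library Cd74 made up more of the sum in myeloid barcodes, at 58.9% with rhIL-7-hyFc 10 mg/kg, 61.7% with buffer, 63.1% with the combination and 60.3% with rhIL-7-hyFc 1.25 mg/kg. Only with rhIL-7-hyFc 10 mg/kg did the Cd74 intervals overlap, at 57.6 to 59.0 in T barcodes and 58.4 to 59.4 in myeloid barcodes. H2-Aa made up 14.6% to 16.4% there, H2-Ab1 11.2% to 13.2% and H2-Eb1 10.4% to 12.0%. Barcodes with mature dendritic cell markers and no Cd3 UMI had less H2-Ab1, at 2.45% (1.06 to 4.76) with rhIL-7-hyFc 10 mg/kg, 4.81% (4.30 to 5.37) with buffer, 3.00% (2.26 to 3.90) with the combination and 8.33% (7.71 to 8.99) with rhIL-7-hyFc 1.25 mg/kg.

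T barcodes without myeloid UMIs but with at least 20 class II UMIs had H2-Ab1 at 6.04% with rhIL-7-hyFc 10 mg/kg, 9.0% with buffer, 9.23% with the combination and 11.2% with rhIL-7-hyFc 1.25 mg/kg. For H2-Ab1 this lay between barcodes with mature dendritic cell markers and myeloid barcodes, but not for every gene. Cd74 made up 63.9% of the sum in these T barcodes with rhIL-7-hyFc 10 mg/kg, 53.5% with buffer, 48.8% with the combination and 50.3% with rhIL-7-hyFc 1.25 mg/kg. These values lay outside those of both classes in each library. With rhIL-7-hyFc 10 mg/kg the interval (60.9 to 66.9) overlapped that of the barcodes with mature dendritic cell markers (55.3 to 66.2). In barcodes with conventional type 1 dendritic cell markers and no Cd3 UMI, Cd74 made up 52.5% with rhIL-7-hyFc 10 mg/kg, 51.9% with buffer, 48.6% with the combination and 47.5% with rhIL-7-hyFc 1.25 mg/kg, and H2-Ab1 14.5% to 15.8%. Those with 1 to 4 class II UMIs had H2-Ab1 at 15.4% with rhIL-7-hyFc 10 mg/kg, 12.6% with buffer, 19.8% with the combination and 12.0% with rhIL-7-hyFc 1.25 mg/kg. In the combination library this last mix stood apart: Cd74 made up 72.3% (69.4 to 75.1) and H2-Ab1 19.8% (17.4 to 22.4), with H2-Aa at 4.10% (2.96 to 5.52) and H2-Eb1 at 3.8% (2.70 to 5.18). The intervals of all 4 shares lay outside those of the myeloid barcodes of the same library. With buffer, the shares of Cd74 (56.7%, 54.7 to 58.8), H2-Aa (17.3%, 15.8 to 19) and H2-Eb1 (13.3%, 12.0 to 14.8) also lay outside the myeloid intervals, by less. With rhIL-7-hyFc 1.25 mg/kg those of Cd74 (66.4%, 64.0 to 68.8) and H2-Aa (12.6%, 11 to 14.4) did so, and with rhIL-7-hyFc 10 mg/kg none of the 4 did.

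**Figure D4:**
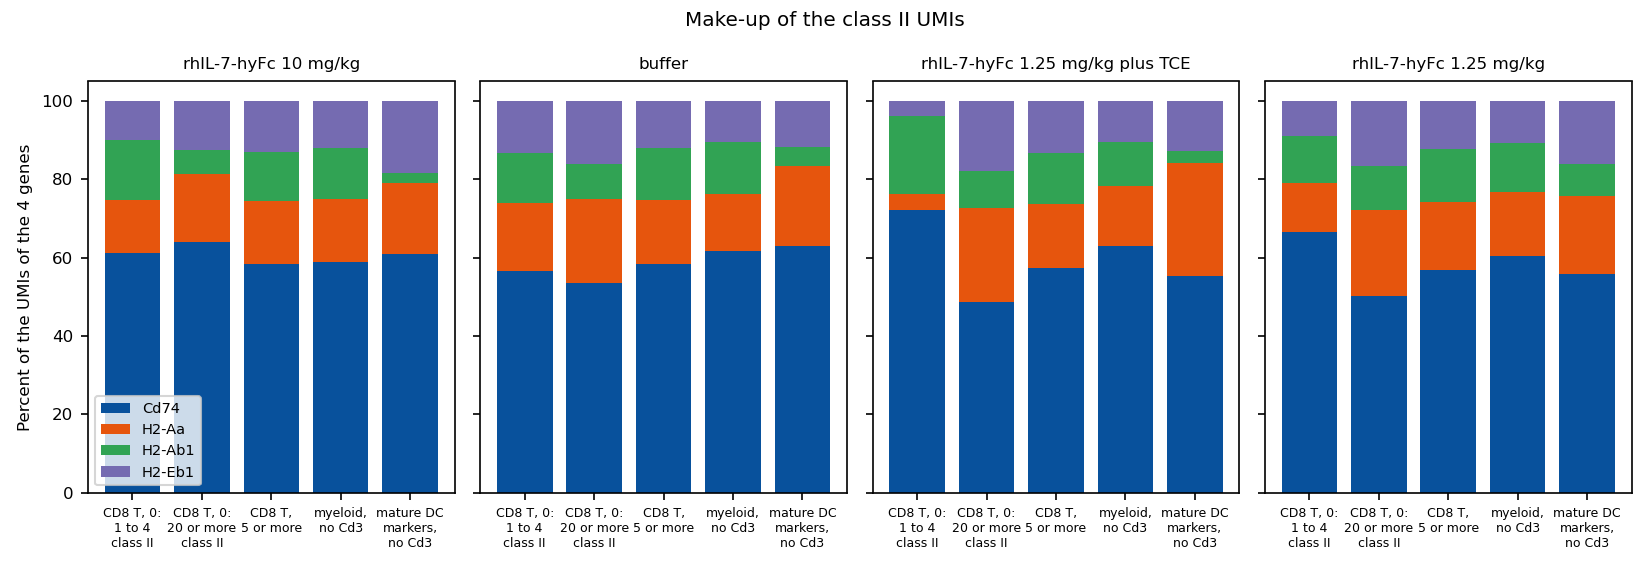
Stacked bars give the percent of the summed UMIs that belongs to each of the 4 genes (y axis) in 5 barcode classes (x axis), with 1 panel per library. H2-Ab1 is thinnest in barcodes with mature dendritic cell markers (2.45% to 8.33%) and thickest in the combination library's T barcodes with 1 to 4 class II UMIs (19.8%).

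The first comparison between groups asked how rhIL-7-hyFc at 10 mg/kg changed CD8 T cells of the tumour. Over all CD8 T barcodes class II RNA was at 426 CPM with rhIL-7-hyFc 10 mg/kg and 1615 CPM with buffer, 3.79-fold lower with rhIL-7-hyFc (3.74 to 3.85). Cd74 was at 246 CPM with rhIL-7-hyFc 10 mg/kg and 911 CPM with buffer, a log2 ratio of −1.89. H2-Aa was at 69.3 CPM with rhIL-7-hyFc 10 mg/kg and 300.5 CPM with buffer (log2 ratio −2.12), H2-Ab1 at 53.7 and 179 CPM (−1.74) and H2-Eb1 at 57.0 and 224 CPM (−1.98). All 4 members were at least 1.5-fold lower, as were 21.4% of all genes with at least 5 CPM, while 6.41% were at least 1.5-fold higher, and the median log2 ratio of all genes was −0.20. The 4 myeloid genes moved with them, at a log2 ratio of −1.87, and the 8 macrophage markers summed to 206 CPM with rhIL-7-hyFc 10 mg/kg and 801 CPM with buffer, with all 8 detected in both. Their part in the result was not tested.

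The size and the sign of the difference depended on the class of barcode. Without myeloid UMIs the members were 23.4-fold lower with rhIL-7-hyFc 10 mg/kg (22.3 to 24.5), and all 4 were past 1.5-fold, against 20.2% of all genes lower and 7.12% higher. The mature dendritic cell markers in these barcodes summed to 6.75 CPM with rhIL-7-hyFc 10 mg/kg, with 7 of 8 detected and Ccl17 at 0, and to 247 CPM with buffer, with 8 of 8 detected. In strict CD8 T barcodes the members were 6.29-fold lower (5.85 to 6.78), and those markers summed to 3.22 CPM with rhIL-7-hyFc 10 mg/kg, with Ccl17 at 0, and 8.73 CPM with buffer, with Apol7c at 0. The macrophage markers there, with the 4 myeloid genes at 0 by the rule, came in sum at 1.58 CPM with rhIL-7-hyFc 10 mg/kg and 15.3 CPM with buffer; the part of these markers was not tested. The 4 genes lay close together in strict CD8 T barcodes, at log2 ratios of −2.66 for Cd74, −2.77 for H2-Aa, −2.44 for H2-Ab1 and −2.72 for H2-Eb1. With a beta chain required and no other condition the fold was 1.96 (1.92 to 2.00).

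In T barcodes with at least 5 myeloid UMIs the members were instead 1.25-fold (1.22 to 1.27) higher with rhIL-7-hyFc 10 mg/kg, and in myeloid barcodes 2.28-fold higher (2.23 to 2.33). In myeloid barcodes the log2 ratios were 1.12 for Cd74, 1.33 for H2-Aa, 1.18 for H2-Ab1 and 1.37 for H2-Eb1, while the myeloid genes themselves were at −0.20. Conventional type 1 dendritic cell markers were detected, at least 3 of 8, in 39.8% of the myeloid barcodes with rhIL-7-hyFc 10 mg/kg and 13.0% with buffer. These shares were not thinned to a common depth, on which detection depends. The part of these markers in the higher level was not tested. With 1 to 4 myeloid UMIs the sum was at a log2 ratio of −0.36, with H2-Ab1 at 0.03 (−0.08 to 0.15).

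**Figure D5:**
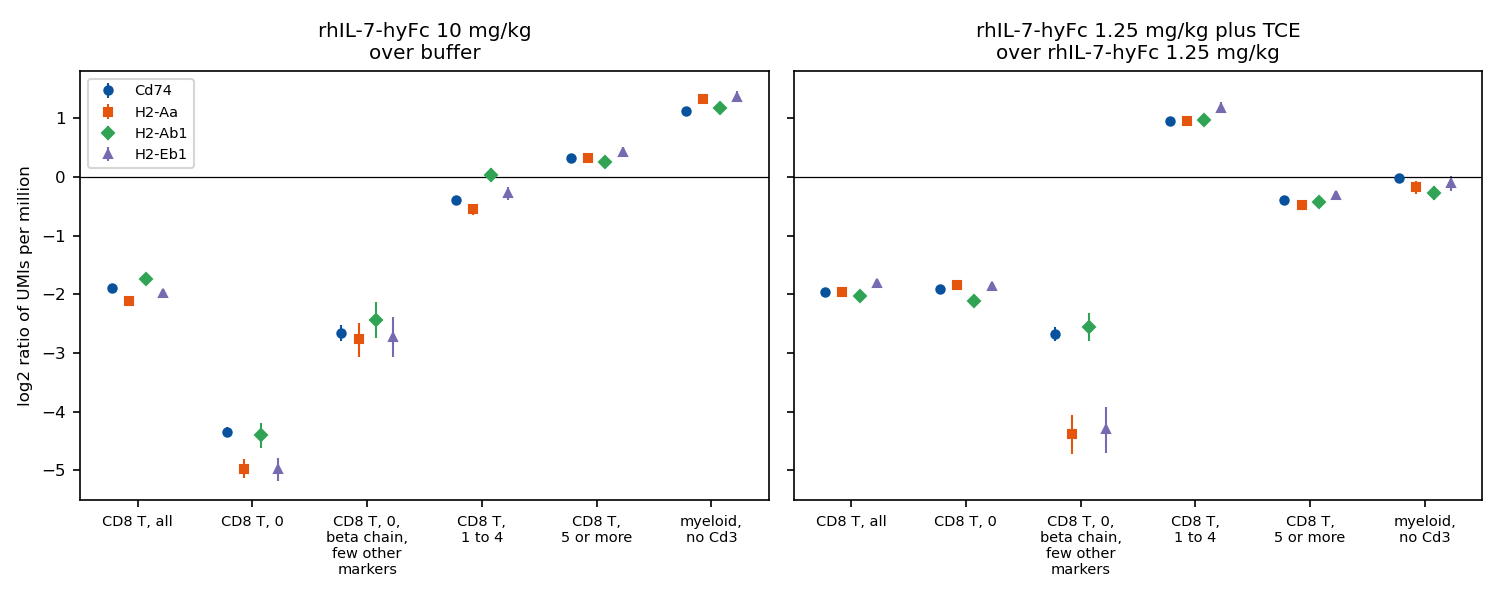
Log2 ratios of CPM (y axis) of the 4 genes are drawn for 6 barcode classes (x axis), rhIL-7-hyFc 10 mg/kg over buffer at the left and the combination over rhIL-7-hyFc 1.25 mg/kg at the right, with 95% counting intervals and a line at 0. At the left the points run from −4.98 in T barcodes without myeloid UMIs to 1.37 in myeloid barcodes; at the right the T barcodes with 1 to 4 myeloid UMIs lie above 0 and all other classes at or below it.

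In the second comparison the TCE was the added agent, on a background of rhIL-7-hyFc at 1.25 mg/kg in both groups. Over all CD8 T barcodes class II RNA was at 955 CPM with the combination and 3689 CPM with rhIL-7-hyFc 1.25 mg/kg, 3.86-fold lower with the combination (3.83 to 3.89). Cd74 was at 534 CPM with the combination and 2078 CPM with rhIL-7-hyFc 1.25 mg/kg, a log2 ratio of −1.96. H2-Aa was at 168 CPM with the combination and 657 CPM with rhIL-7-hyFc 1.25 mg/kg (log2 ratio −1.96), H2-Ab1 at 119 and 485 CPM (−2.03) and H2-Eb1 at 134 and 469 CPM (−1.81). All 4 members were at least 1.5-fold lower, against 8.98% of all genes lower and 2.52% higher, and a median log2 ratio of all genes of 0.08. The myeloid genes were at −1.90, and the 8 macrophage markers, all detected in both, summed to 660 CPM with the combination and 2750 CPM with rhIL-7-hyFc 1.25 mg/kg. Their part in the result was not tested.

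Without myeloid UMIs the members were 3.76-fold lower with the combination (3.69 to 3.83), and all 4 were past 1.5-fold, against 3.40% of all genes lower and 1.68% higher. Mature dendritic cell markers in these barcodes, with 8 of 8 detected in both libraries, summed to 53.6 CPM with the combination and 120 CPM with rhIL-7-hyFc 1.25 mg/kg. In strict CD8 T barcodes the members were 8.14-fold lower (7.63 to 8.70), on 1116 UMIs with the combination and 4868 with rhIL-7-hyFc 1.25 mg/kg, or 973 and 4115 UMIs without the highest barcode of each. Among the barcodes that remain with rhIL-7-hyFc 1.25 mg/kg, single ones still held 473, 448 and 327 class II UMIs. The fold in strict CD8 T barcodes thus rests in part on few barcodes, which its counting interval does not show. Macrophage markers there summed to 0.667 CPM with the combination, with Adgre1 also at 0, and 11.2 CPM with rhIL-7-hyFc 1.25 mg/kg, and mature dendritic cell markers to 3.13 CPM with the combination and 4.67 CPM with rhIL-7-hyFc 1.25 mg/kg; their part was not tested. The 4 genes differed in size, at log2 ratios of −2.68 for Cd74 and −2.55 for H2-Ab1 but −4.38 for H2-Aa and −4.30 for H2-Eb1. In myeloid barcodes the sum was nearly level, at 12122 CPM with the combination and 12842 CPM with rhIL-7-hyFc 1.25 mg/kg (log2 ratio −0.08, −0.12 to −0.04), and Cd74 at −0.02 (−0.07 to 0.03). T barcodes with 1 to 4 myeloid UMIs went the other way, 1.99-fold higher with the combination (1.94 to 2.04), in a class of 221 barcodes against 1347 with rhIL-7-hyFc 1.25 mg/kg.

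Of the wider class II pathway, 19 genes were listed for comparison and 18 occurred in a library: transcription factors, peptide loaders, proteases and costimulatory genes. With rhIL-7-hyFc 10 mg/kg, 6 of the 14 measured in all CD8 T barcodes were at least 1.5-fold lower than with buffer and 2 were higher, beside 21.4% of all genes lower and 6.41% higher. Their median log2 ratio was −0.22, beside −0.20 over all genes. The lower ones were the H2-DM beta chains H2-DMb1 and H2-DMb2, the costimulatory genes Cd80 and Cd40 and the proteases Ctsl and Lgmn, at log2 ratios of −2.78 (Cd80) to −1.47 (H2-DMb1). The higher ones were H2-Oa and H2-Ob, the chains of H2-O, at 1.04 and 1.58. H2-Oa was at 26.8 CPM with rhIL-7-hyFc 10 mg/kg and 13.1 CPM with buffer, 2.05-fold higher (1.86 to 2.27), while Lgmn was at 24.1 CPM with rhIL-7-hyFc 10 mg/kg and 156 CPM with buffer, 6.50-fold lower (6.14 to 6.88). In strict CD8 T barcodes H2-DMa was at 27.0 CPM with rhIL-7-hyFc 10 mg/kg and 13.2 CPM with buffer (log2 ratio 1.04), while H2-DMb1 was at 0.240 and 2.51 CPM (−3.39), so the 2 chains of H2-DM went opposite ways and H2-DMb1 went with the members. In myeloid barcodes H2-DMa was at 422 CPM with rhIL-7-hyFc 10 mg/kg and 196 CPM with buffer (log2 ratio 1.10), H2-DMb1 at 476 and 232 CPM (1.04) and Ciita at 24.0 and 3.8 CPM, the last on 43 and 4 UMIs. There the 3 genes went in the direction of the members.

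With the combination, 10 of 15 measured pathway genes were at least 1.5-fold lower than with rhIL-7-hyFc 1.25 mg/kg in all CD8 T barcodes and 0 were higher, beside 8.98% of all genes lower and 2.52% higher. The median log2 ratio of the list was −1.37, beside 0.08 over all genes. H2-DMb1 was at 17.1 CPM with the combination and 81.6 CPM with rhIL-7-hyFc 1.25 mg/kg (log2 ratio −2.26), and Ctss at 270 and 948 CPM (−1.81). The log2 ratios of the 10 lower genes ran from −3.08 (Lgmn) to −0.74 (Cd86). In strict CD8 T barcodes H2-DMb1 was at 0.389 CPM with the combination and 3.73 CPM with rhIL-7-hyFc 1.25 mg/kg (−3.26), whereas Ctss was at 121 and 158 CPM (−0.39) and H2-DMa at 15.8 and 21.3 CPM (−0.43). Between the strata, 11 of 15 pathway genes were at least 1.5-fold higher in T barcodes with at least 5 myeloid UMIs than in those with 0 with rhIL-7-hyFc 10 mg/kg, 10 of 15 with buffer, and 12 of 16 in each library of experiment 2. Of all genes, 24.8% were with rhIL-7-hyFc 10 mg/kg, 23.0% with buffer, 10.2% with the combination and 13.5% with rhIL-7-hyFc 1.25 mg/kg. The median of the list's log2 ratios was 2.97 with rhIL-7-hyFc 10 mg/kg, 2.35 with buffer, 2.33 with the combination and 1.96 with rhIL-7-hyFc 1.25 mg/kg, beside 0.04, −0.06, −0.16 and −0.10 over all genes in the same order.

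The genes whose level ran most closely with the class II sum were sought over 16 sums, the 3 strata of CD8 T barcodes and the myeloid barcodes in 4 libraries, among 4140 genes with at least 50 CPM in 1 of them. On log2(CPM + 1) the nearest was H2-DMb1 (Pearson r 0.98), followed by Ifi205, Plbd1, Cd40, Csf2rb, Pkib, Spi1, Ctsh, Il1b and Alox5ap (r 0.951). Lyz2 ranked 113th with r 0.908. The sums share libraries and myeloid RNA, so the values describe these classes only.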

How the data were processed

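The authors deposited, for each of 4 expression libraries, raw UMI counts as a gene by barcode matrix. Per the file headers it came from Cell Ranger 4.0.0 in experiment 1 and 6.1.2 in experiment 2; the submitters' processing notes name the build GRCm38. The 4 TCR libraries' contig annotations were used for assembled beta chains and clone sizes. No sample could be paired, and each group was 1 library.

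Counts were used as deposited. Barcodes with at least 500 genes and under 10% mitochondrial UMIs were kept; no doublet caller was run and no doublets were removed, and no source used states whether the authors removed any. CD8 T, stratum and myeloid classes were defined as in the report, and counts were summed per class and library and divided by the class total (CPM). A cell type was named from at least 3 detected genes of an 8-gene list, with no tie. Intervals are exact Poisson for levels, exact conditional binomial for folds and Clopper-Pearson for shares, all at 95%; they leave out differences between mice and libraries. A gene was called higher or lower past 1.5-fold with at least 5 CPM in either sum. Medians over genes and the likeness search used log2(CPM + 1).

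The members and lists were chosen with earlier results of these data known, and the strict class and the rule on under 3 markers of another cell type were added after seeing the data. Named pathway genes were Ciita, Ctss, H2-DMa, H2-DMb1 and the 3 others with the most UMIs; others named were chosen after their values were seen. Alternatives covered the T cell gate, beta chains, barcode filter, equal weight per barcode, scaling (edgeR's TMM), the strata, the myeloid minimum, the thinning depth and the CPM minimum. The count steps were tested on simulated data. Software was Python 3.11.15, numpy 2.4.6, scipy 1.17.1, pandas 2.3.3, matplotlib 3.10.9, R 4.3.3 and edgeR 4.0.16.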

Additional observations from a re-analysis of the deposited data

Results flagged for a closer look

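The direction of the class II difference changed with the class of barcode in both experiments, and with 1 library per group the change was not tested. For rhIL-7-hyFc 10 mg/kg over buffer the summed log2 ratio was −1.92 over all CD8 T barcodes, 0.32 in T barcodes with at least 5 myeloid UMIs and 1.19 in myeloid barcodes. In the class with at least 5 myeloid UMIs the median Cd3 count was 26 with rhIL-7-hyFc 10 mg/kg and 2 with buffer, and a beta chain was assembled in 71.1% of barcodes with rhIL-7-hyFc 10 mg/kg and 26.9% with buffer. For the combination over rhIL-7-hyFc 1.25 mg/kg the ratio was −1.95 over all CD8 T barcodes and 0.99 in T barcodes with 1 to 4 myeloid UMIs. In the latter the 4 myeloid genes were at −0.18, a value largely set by the rule, since their count defines that class.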

How the results depend on the processing

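The values below are log2 ratios of the class II sum. For rhIL-7-hyFc 10 mg/kg over buffer in all CD8 T barcodes (−1.92), the ratio was −1.26 with at least 3 Cd3 and 3 Cd8 UMIs, −0.97 with a beta chain required, −1.87 without barcodes with 2 or more beta chains, −2.49 with each barcode weighted equally, −1.71 with TMM scaling, and, chosen after seeing the data, −2.87 with under 3 markers of another cell type and −2.52 with this and a beta chain. In those without a myeloid UMI (−4.55) it was in the same order −3.45, −4.01, not moved without 2 or more beta chains, −4.76, −4.34, −3.23 and −2.65, and −2.73 with strata from C1q alone. For the combination over rhIL-7-hyFc 1.25 mg/kg in all CD8 T barcodes (−1.95) it was −2.51 with a beta chain, −1.87 without 2 or more, −2.29 with equal weights, −2.03 with TMM, −1.53 with under 3 markers and −2.12 with both. In those without a myeloid UMI (−1.91) it was −2.01 with a beta chain, −1.99 with equal weights, −1.97 with TMM, −2.06 with C1q strata, −1.94 with under 3 markers and −3.03 with both. All 136 single-gene ratios under these alternatives were below 0 (−5.25 to −0.90). They recompute the same 4 genes on overlapping barcodes, so they are not independent of each other. Over all genes the median log2 ratio in all CD8 T barcodes was −0.20 for rhIL-7-hyFc 10 mg/kg over buffer. It was 0.08 for the combination over rhIL-7-hyFc 1.25 mg/kg.

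For T barcodes with at least 5 over 0 myeloid UMIs, the ratio with rhIL-7-hyFc 10 mg/kg (8.30) was 7.89 with the stricter gate, 8.95 with a beta chain, 8.41 without 2 or more, 8.43 with equal weights, 6.34 with C1q strata, 5.22 with under 3 markers and 5.63 with both. With buffer (3.43) it was in the same order 4.38, 4.58, 3.31, 3.22, 3.19, 2.02 and 2.80. With the combination (4.58) it was 6.00 with a beta chain, 5.73 with equal weights, 3.26 with C1q strata, 5.98 with under 3 markers and 8.88 with both. With rhIL-7-hyFc 1.25 mg/kg (3.08) it was 4.06 with a beta chain, 3.02 without 2 or more, 4.07 with equal weights, 1.67 with C1q strata, 3.50 with under 3 markers and 4.49 with both. The rule of under 3 markers removes most barcodes with at least 5 myeloid UMIs. At least 3 macrophage markers were detected in 96.1% of these with rhIL-7-hyFc 10 mg/kg and 97.0% with buffer. The share was 90.5% with the combination and 96.8% with rhIL-7-hyFc 1.25 mg/kg. Ratios under that rule thus rest on the few barcodes left. With at least 10 myeloid UMIs for myeloid barcodes, CD8 T barcodes held 16.4% of the myeloid level with buffer and 7.62% with the combination. The cause of these shifts was not tested. Without the barcode filter every ratio moved by less than its counting interval.

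Thinned to 5000 UMIs, the share of T barcodes without a myeloid UMI that had a class II UMI was 8.79% with rhIL-7-hyFc 10 mg/kg, 45.1% with buffer, 6.86% with the combination and 18.5% with rhIL-7-hyFc 1.25 mg/kg. Counts of called genes fell with the minimum of 20 CPM, under which fewer genes are compared. For rhIL-7-hyFc 10 mg/kg over buffer they were 904 lower (1940 at 5 CPM) and 340 higher (580) in all CD8 T barcodes, and 835 (1793) and 378 (633) without a myeloid UMI. For the combination over rhIL-7-hyFc 1.25 mg/kg they were 465 (835) and 105 (234), and 129 (306) and 58 (151). Between strata they were 1323 (2265) with rhIL-7-hyFc 10 mg/kg, 1371 (2218) with buffer, 548 (952) with the combination and 762 (1264) with rhIL-7-hyFc 1.25 mg/kg.

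No paired analysis was possible because each group was 1 library and no result between groups comes from a test. Mice, library and treatment cannot be told apart within an experiment, and the number of non-T barcodes limits every value set beside them.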

Other observations

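Strict CD8 T barcodes were also divided by the state of the T cell. Those with a UMI of Pdcd1, the gene of the inhibitory receptor PD-1, held 29.3 CPM of class II RNA with the combination, against 6.18 CPM in those without one. With rhIL-7-hyFc 1.25 mg/kg the values were 269 CPM with and 60.6 CPM without Pdcd1, with rhIL-7-hyFc 10 mg/kg 29.4 and 18.7 CPM, and with buffer 127 and 155 CPM. In the rhIL-7-hyFc 1.25 mg/kg library a single barcode held 18.7% of the class II UMIs with Pdcd1 and another 38.6% of those without, and leaving out the highest barcode of each gave 219 and 37.3 CPM. Thinned to 3000 UMIs, a class II UMI was found in 5.10% (4.48 to 5.78) of Pdcd1 barcodes and 1.68% (1.24 to 2.22) of the others with the combination. The shares were 14.1% and 9.66% with rhIL-7-hyFc 1.25 mg/kg, 7.04% and 4.79% with rhIL-7-hyFc 10 mg/kg, and 33.9% and 39.4% with buffer. The buffer library thus ran opposite to the other 3 in level and in thinned share. The intervals of its thinned shares overlapped, however, as did those of the rhIL-7-hyFc 10 mg/kg library. Without thinning, the buffer shares were 68.1% with Pdcd1 and 66.75% without, at median depths of 10780.5 and 6794 UMIs. The part of depth was not tested.

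By clone size, class II RNA in the combination library was at 34.3 CPM in clones of at least 5 barcodes, 26.7 CPM in clones of 2 to 4 and 7.32 CPM in clones of 1. With rhIL-7-hyFc 1.25 mg/kg it was at 291, 403 and 39.1 CPM in the same order, and 70.2% of the class II UMIs of the middle size were in 1 barcode, without which it was at 121 CPM. With rhIL-7-hyFc 10 mg/kg it was at 35.1, 23.5 and 19.2 CPM, and with buffer at 112, 196 and 154 CPM. In the former library a single barcode held 27.3% of the class II UMIs of the largest size. Leaving out the highest barcode of each size gave 25.64, 20.03 and 18.81 CPM there, and the intervals of the thinned shares overlapped. In the buffer library the shares without thinning were 68.9%, 69.3% and 65.7%, at median depths of 11337, 7094 and 7415 UMIs. After thinning they were 30.3%, 43.5% and 37.6%. Barcodes with a UMI of Tcf7, a transcription factor of naive and stem-like T cells, held 35.0 CPM with rhIL-7-hyFc 1.25 mg/kg, against 251 CPM in those without one. Thinned to 3000 UMIs, a class II UMI was found in 9.64% (8.34 to 11.1) of the barcodes with Tcf7 in that library and 12.5% (11.3 to 13.9) of those without. With buffer the level was 179 CPM with Tcf7 and 122 CPM without, with rhIL-7-hyFc 10 mg/kg 19.4 and 23.7 CPM, and with the combination 16.2 and 21.8 CPM. The values without the highest barcode were chosen after seeing the data. Each of these values comes from 1 library and was not tested.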
